A study of Homo sapiens with 6 samples.

Results

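The 10 genes described here are LINC00673, the long noncoding RNA that the study set out to deplete, and 9 genes around it on chromosome 17: LINC00511, LINC01152, SOX9, SLC39A11, SSTR2, COG1, FAM104A, C17orf80 and SDK2. They were chosen by position and by name, with no measured value in the choice, and are 10 of the 50550 rows of the gene tables. RNA was sequenced from U2OS, an established human osteosarcoma cell line, in 6 libraries of 2 groups. Lv_LINC00673 (n = 3) carries the genotype label LINC00673 and Lv_NC (n = 3) the genotype label NC, and both are derived from U2OS with no treatment or time given in the labels. The series' design text speaks of knockdown derivatives and of wild-type cells, and NC is spelled out nowhere, so Lv_NC may be a vector control or the parent line. None of the sources used here gives the vector, the silencing sequence or the number of clones. Whether the 3 libraries of a group are separate cultures is also not stated, and the p-values therefore cover only the differences between libraries, which could be technical.

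Long noncoding RNAs are transcripts without a long reading frame, and some act on genes near their own site of transcription. The gene-poor stretches on both sides of SOX9 are known for its distant enhancers, and rearrangements there cause skeletal malformations. SOX9 itself is the transcription factor of the SRY-box family that directs cartilage formation and testis development. LINC00673 lies between SOX9 and SLC39A11 and has been studied in several tumours, among them pancreatic cancer, where it was reported to help the ubiquitin ligase PRPF19 act on the phosphatase PTPN11. Beyond SLC39A11, which encodes a zinc transporter, the region turns into a gene-dense stretch with housekeeping genes such as COG1, a subunit of a Golgi tethering complex.

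Total counts were 61815841 to 71237493 in Lv_LINC00673 libraries and 76814723 to 87227980 in Lv_NC libraries, and LINC00673 had 417 to 751 of them in a library. TMM factors, which set the effective library size, were 1.03 to 1.08 in Lv_LINC00673 and 0.929 to 0.954 in Lv_NC, so levels relative to library totals differ from the TMM-normalized ones. Over all 21933 tested genes, 5883 (26.8%) passed an adjusted p of 0.05, 3145 of them (14.3%) higher and 2738 (12.5%) lower in Lv_LINC00673, and with library totals as the only scaling 4051 were higher and 1224 lower. Of 6 genes marking mesenchymal cells and osteoblasts, 5 reached 1 FPKM, and their summed level was 1479 to 1647 FPKM in Lv_LINC00673 and 1145 to 1246 in Lv_NC; VIM made up most of the sum (1377 FPKM in Lv_LINC00673 and 998 in Lv_NC), SPARC went the other way (128 FPKM in Lv_LINC00673 and 147 in Lv_NC), and COL1A2 had at most 13 counts in a library. Of 6 epithelial markers 4 reached 1 FPKM, mostly through KRT8 and KRT18, with sums of 1520 to 1724 FPKM in Lv_LINC00673 and 1933 to 2057 in Lv_NC, while CLDN4 and EPCAM went against the sum (for EPCAM 1.56 FPKM in Lv_LINC00673 and 1.26 in Lv_NC), and CDH1 stayed at or below 0.250 FPKM. None of 5 blood and 4 endothelial markers reached 1 FPKM in any library. In RNA from whole cultures, fewer cells expressing a gene and less RNA of it per cell cannot be told apart.

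The genes lie in the order LINC01152, SOX9, LINC00673, LINC00511, SLC39A11, SSTR2, COG1, FAM104A, C17orf80 and SDK2 along the forward strand of chromosome 17. All coordinates are from RefSeq's annotation of GRCh38.p14, 1-based, the same assembly as the hg38 build of the submitters' notes. LINC00673 spans 72403322 to 72592804 on the reverse strand. LINC00511, a noncoding RNA on the same strand, spans 72598041 to 72640472 and ends 5236 bases before the start of LINC00673. SLC39A11 spans 72645949 to 73092688, again on the reverse strand, 5476 bases beyond the start of LINC00511. On the far side, SOX9 spans 72121020 to 72126416 and LINC01152 spans 72030654 to 72041297, both on the forward strand. The 5 RefSeq transcripts of LINC00673, of 2160 to 2527 bases, all carry the gene name LINC00511 in GENCODE release 29. That release names 106 transcripts LINC00511 and 0 transcripts LINC00673, so the boundary between these noncoding genes depends on the annotation used for counting.

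At the other end, SSTR2 spans 73165010 to 73176633 and COG1 spans 73193055 to 73208507, both on the forward strand. FAM104A, now named VCF1, lies on the reverse strand from 73207353 to 73232394, and its 3′ end overlaps that of COG1 by 1155 bases. C17orf80, now named MTNAP1, runs from 73232433 to 73248959 on the forward strand. FAM104A and C17orf80 are head to head with 38 bases between them. C17orf80 also overlaps CPSF4L by 6859 bases. SDK2 spans 73334384 to 73644445 on the reverse strand. LINC01152 overlaps LOC102723517 by 7191 bases, and LINC00511 overlaps LOC107985005 by 6049 bases, with no strand held for either partner. Whether reads were counted by strand is not stated in the labels. The values of COG1, FAM104A, C17orf80, LINC01152 and LINC00511 are therefore uncertain where these genes overlap another.

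The start regions are shown because 3 genes on the reverse strand, LINC00673, LINC00511 and SLC39A11, follow each other with gaps of a few kb, while FAM104A and C17orf80 share a start region. Each sequence is RefSeq's window on GRCh38.p14 from 250 bases before to 50 bases after the start of the gene, 5′ to 3′ on the strand of the gene. Such a window was held for 8 of the 10 genes. In the first 3 the capitals mark the letters GGGCGG or their reverse complement CCGCCC, the GC box that SP1-type factors are known to bind. LINC00673 at chr17:72592755-72593054, reverse strand, has 2 matches, LINC00511 at chr17:72640423-72640722, reverse strand, has 1, and SLC39A11 at chr17:73092639-73092938, reverse strand, has 2.
LINC00673: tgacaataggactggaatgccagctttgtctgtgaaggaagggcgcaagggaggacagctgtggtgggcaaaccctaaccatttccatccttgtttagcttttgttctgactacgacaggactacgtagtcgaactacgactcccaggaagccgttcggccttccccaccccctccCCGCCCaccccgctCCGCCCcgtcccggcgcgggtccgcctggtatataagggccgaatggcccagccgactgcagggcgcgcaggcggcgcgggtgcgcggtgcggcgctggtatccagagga
LINC00511: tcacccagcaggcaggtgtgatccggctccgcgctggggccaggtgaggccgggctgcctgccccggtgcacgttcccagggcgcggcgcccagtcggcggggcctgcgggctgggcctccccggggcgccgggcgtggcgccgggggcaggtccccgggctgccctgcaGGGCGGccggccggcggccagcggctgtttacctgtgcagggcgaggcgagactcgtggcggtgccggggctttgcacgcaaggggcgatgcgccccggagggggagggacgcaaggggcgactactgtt
SLC39A11: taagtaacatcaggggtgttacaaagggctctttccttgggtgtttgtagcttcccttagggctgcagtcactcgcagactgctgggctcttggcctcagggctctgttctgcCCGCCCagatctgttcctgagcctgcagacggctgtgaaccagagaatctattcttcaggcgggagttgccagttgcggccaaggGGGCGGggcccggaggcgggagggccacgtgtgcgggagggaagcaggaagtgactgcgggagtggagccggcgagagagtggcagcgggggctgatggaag
The GC content of these windows was 63.3% for LINC00673, 78.0% for LINC00511 and 62.0% for SLC39A11. A GC box was found on either strand in 45.0% of the 35116 windows of the table, so a match is common. The letters TATAAA, the core of a TATA box, were in none of these 3 windows and in 11.5% of all windows, searched on both strands. Only this exact string was searched. The LINC00673 window holds the related letters tatataag before its start, which the search did not count. The COG1 window had 81.0% GC and 13 GC box matches.

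For the head-to-head pair the capitals mark the 138 bases at chr17:73232345-73232482 that both windows hold, read on opposite strands. FAM104A is at chr17:73232345-73232644, reverse strand, and C17orf80 at chr17:73232183-73232482, forward strand.
FAM104A: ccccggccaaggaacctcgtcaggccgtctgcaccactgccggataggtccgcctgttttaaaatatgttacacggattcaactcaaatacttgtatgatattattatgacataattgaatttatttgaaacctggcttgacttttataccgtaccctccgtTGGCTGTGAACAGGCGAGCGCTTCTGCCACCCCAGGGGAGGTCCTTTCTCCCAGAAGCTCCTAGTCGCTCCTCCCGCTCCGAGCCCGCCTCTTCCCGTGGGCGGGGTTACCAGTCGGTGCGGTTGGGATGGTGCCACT
C17orf80: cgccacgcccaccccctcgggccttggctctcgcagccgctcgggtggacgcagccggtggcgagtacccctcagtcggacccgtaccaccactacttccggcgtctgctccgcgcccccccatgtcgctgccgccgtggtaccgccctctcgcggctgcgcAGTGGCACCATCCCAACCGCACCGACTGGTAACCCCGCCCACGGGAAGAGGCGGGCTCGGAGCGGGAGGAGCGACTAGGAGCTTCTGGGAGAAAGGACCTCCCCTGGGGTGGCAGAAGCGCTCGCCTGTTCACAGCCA
The shared bases have a GC content of 66.7% and hold the outermost annotated start of each gene, and these lie 39 bases apart. RefSeq's windows give each gene a further start outside the shared bases, at 73227713 for FAM104A and 73232661 for C17orf80.

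LINC00673, the targeted RNA, was counted in all 6 libraries, with values in Lv_LINC00673 that lay below Lv_NC by a small margin and a difference that missed the threshold. It had 479, 417 and 435 counts in Lv_LINC00673 libraries 1 to 3, against 709, 751 and 516 counts in Lv_NC libraries 1 to 3. After TMM scaling these were 6.55, 6.23 and 6.38 CPM in Lv_LINC00673, against 9.16, 9.27 and 7.08 CPM in Lv_NC. The groups did not overlap on this scale, and Lv_NC library 3 was the lowest of its group and nearest to the Lv_LINC00673 libraries. The mean was 6.39 ± 0.159 CPM in Lv_LINC00673 and 8.50 ± 1.24 CPM in Lv_NC (SD, n = 3 each). The log2 fold change was -0.41 (SE 0.16, 95% interval -0.78 to -0.04), with an adjusted p of 0.0924 by edgeR's quasi-likelihood test. Lv_LINC00673 thus held 75.1% of the LINC00673 level of Lv_NC, with an interval of 58.1% to 97.0%.

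The deposited FPKM and the library totals gave smaller differences for LINC00673. Its deposited FPKM was 2.82, 2.73 and 2.80 in Lv_LINC00673, against 3.53, 3.46 and 2.75 in Lv_NC. Here Lv_NC library 3 fell among the Lv_LINC00673 libraries, and the exact two-sided permutation test over 20 splits gave p = 0.3, where the smallest p the design allows is 0.1. As CPM of the library total the values were 6.72, 6.75 and 6.80 in Lv_LINC00673, against 8.74, 8.61 and 6.72 in Lv_NC. The groups overlapped, with Lv_NC library 3 (6.717) just below the lowest Lv_LINC00673 library (6.724). With library totals as the only scaling the log2 fold change was -0.25 (edgeR adjusted p = 0.294). With an offset fitted to GC content and transcript length it was -0.16 (edgeR adjusted p = 0.420). Over the 20 alternative settings and left-out libraries the log2 fold change stayed below 0, between -0.53 and -0.15, and the adjusted p lay between 0.0528 and 0.491.

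**Figure D1:**
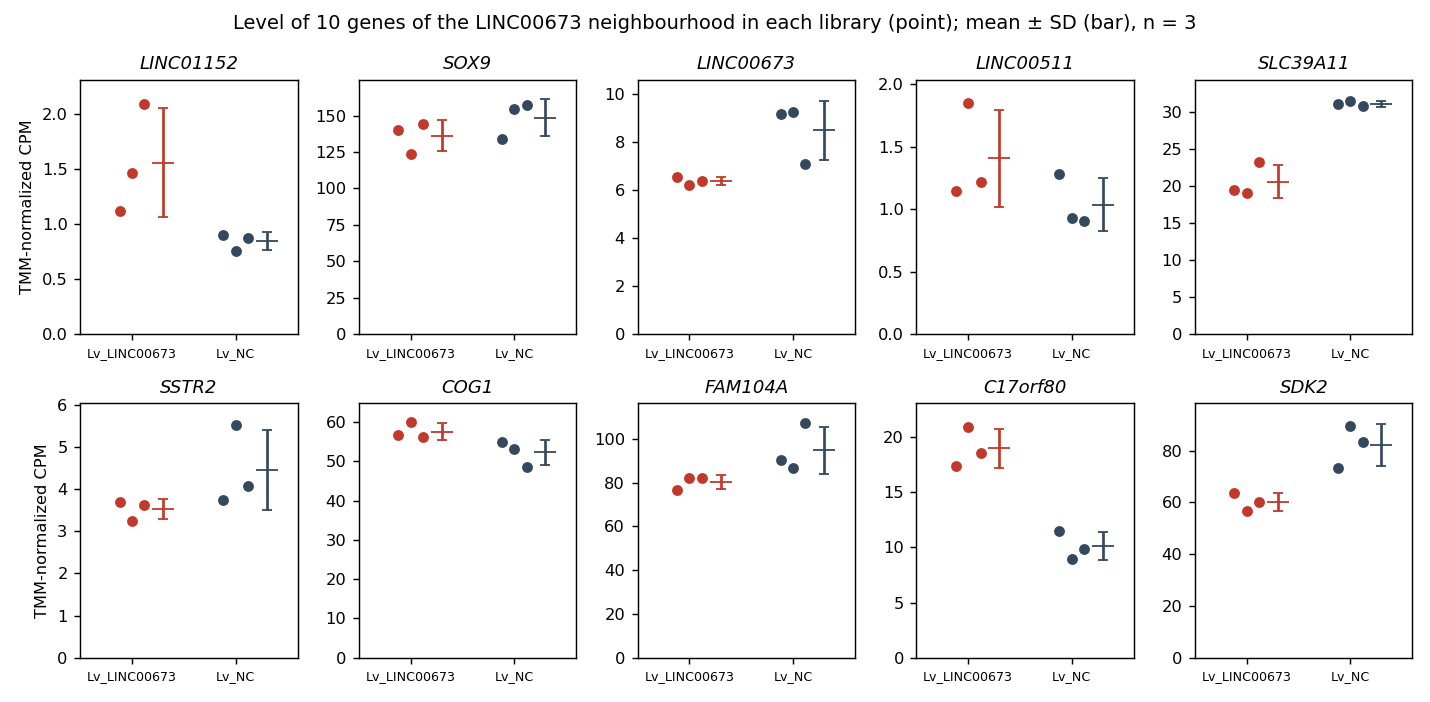
TMM-normalized CPM (vertical axis, from 0) of the 10 genes in each library, Lv_LINC00673 left and Lv_NC right in each panel, with the mean and SD of 3 libraries as a bar beside the points. C17orf80 was 17.4 to 20.9 CPM in Lv_LINC00673 and 8.99 to 11.5 in Lv_NC, SLC39A11 and SDK2 were lower in Lv_LINC00673, and LINC00673 had 1 Lv_NC library close to the Lv_LINC00673 libraries.

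The other noncoding RNAs of the region did not pass the threshold, and both had means above those of Lv_NC. LINC00511, which starts 47668 bases from LINC00673 on the same strand and has been studied as a tumour-associated RNA that binds the methyltransferase EZH2, had 84, 124 and 83 counts in Lv_LINC00673, against 99, 75 and 66 counts in Lv_NC. In CPM these were 1.15, 1.85 and 1.22 in Lv_LINC00673, against 1.28, 0.926 and 0.905 in Lv_NC. The groups overlapped, since Lv_NC library 1 lay between Lv_LINC00673 libraries. Its log2 fold change was 0.44 (SE 0.29, 95% interval -0.23 to 1.10, edgeR adjusted p = 0.303).

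LINC01152, a noncoding RNA gene on the SOX9 side, had 82, 98 and 143 counts in Lv_LINC00673, against 70, 61 and 64 counts in Lv_NC. Its level was 1.12, 1.46 and 2.10 CPM in Lv_LINC00673, against 0.905, 0.753 and 0.878 CPM in Lv_NC. All 3 Lv_LINC00673 libraries were above all Lv_NC libraries, and they spread over almost a CPM. This gave a log2 fold change of 0.88 (SE 0.30, 95% interval 0.21 to 1.56, edgeR adjusted p = 0.0566). Without Lv_LINC00673 library 1 it was 1.06 and passed the threshold (edgeR adjusted p = 0.0316), as it did with library totals (1.05, adjusted p = 0.0396) and with a 1 CPM filter (0.92, adjusted p = 0.0386). With the GC and length offset it was 0.50 (edgeR adjusted p = 0.221), at a transcript GC content of 41.7%.

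The relation between the neighbouring noncoding RNAs was measured as a ratio of counts within each library, which needs no scaling between libraries. There were 5.70, 3.36 and 5.24 LINC00673 counts per LINC00511 count in Lv_LINC00673, against 7.16, 10.01 and 7.82 in Lv_NC. The ratio was lower in all 3 Lv_LINC00673 libraries than in any Lv_NC library, with a difference of -0.83 in log2 ratio. The exact two-sided permutation p was 0.1, the smallest the design allows, and 0.15 after Benjamini-Hochberg adjustment over 6 ratios computed. The ratio of LINC00673 to SLC39A11 counts was 0.336, 0.327 and 0.275 in Lv_LINC00673, against 0.295, 0.295 and 0.230 in Lv_NC, and the groups overlapped (exact permutation p = 0.3, 0.3 adjusted). LINC00673 counts were 4.67%, 5.03% and 4.43% of SOX9 counts in Lv_LINC00673, against 6.84%, 5.99% and 4.51% in Lv_NC, again with overlap (exact permutation p = 0.3, 0.3 adjusted).

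SOX9 had the highest FPKM of the 10 genes, and its difference between the groups did not pass the threshold. It had 10253, 8294 and 9827 counts in Lv_LINC00673, against 10362, 12539 and 11445 counts in Lv_NC. Its level was 140.1, 124 and 144 CPM in Lv_LINC00673, against 134, 155 and 157 CPM in Lv_NC, and Lv_NC library 1 lay between Lv_LINC00673 libraries. The log2 fold change was -0.13 (SE 0.10, 95% interval -0.35 to 0.10, edgeR adjusted p = 0.386). Its sign was not stable, since the log2 fold change was 0.04 with library totals and 0.04 on both log2 FPKM scales. The lower bound of its interval was 78.2% of the Lv_NC level.

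SLC39A11, which encodes the zinc transporter ZIP11 and lies upstream of LINC00511 on the same strand, was lower in Lv_LINC00673. It had 1426, 1275 and 1580 counts in Lv_LINC00673, against 2403, 2546 and 2240 counts in Lv_NC. The CPM values were 19.5, 19.0 and 23.2 in Lv_LINC00673, against 31.1, 31.4 and 30.7 in Lv_NC. The groups were well apart, and the Lv_NC libraries lay within 1 CPM of each other. Lv_LINC00673 held 66.2% of the Lv_NC level (log2 fold change -0.59, SE 0.12, 95% interval -0.86 to -0.33, edgeR adjusted p = 0.00973). Under the GC and length offset the log2 fold change was -0.46 (edgeR adjusted p = 0.0058), and SLC39A11 passed the threshold under every alternative but the replicate block.

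SDK2, which encodes a sidekick adhesion protein of the immunoglobulin superfamily known from synapses of the retina, was also lower in Lv_LINC00673. It had 4656, 3791 and 4090 counts in Lv_LINC00673, against 5675, 7248 and 6064 counts in Lv_NC. Scaled to CPM, it had 63.6, 56.6 and 59.997 in Lv_LINC00673, against 73.3, 89.5 and 83.2 in Lv_NC, with no overlap. This gave a log2 fold change of -0.45 (SE 0.10, 95% interval -0.68 to -0.22, edgeR adjusted p = 0.0152), a level 73.3% of that in Lv_NC. The call was lost with library totals (-0.28, adjusted p = 0.0517), on log2(FPKM + 1) (-0.25, limma adjusted p = 0.116) and on log2(FPKM + 0.1) (-0.28, limma adjusted p = 0.108). It was also lost without Lv_LINC00673 library 2 or 3 (edgeR adjusted p = 0.0578 and 0.0602) and without Lv_NC library 2 or 3 (edgeR adjusted p = 0.0514 and 0.0584). With the GC and length offset the log2 fold change was -0.63 (edgeR adjusted p = 0.000771), at a transcript GC content of 58.5% and a length of 10723 bases.

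C17orf80, which encodes a protein of the mitochondrial nucleoid, was the only gene of the 10 to pass the threshold higher in Lv_LINC00673. It had 1275, 1402 and 1268 counts in Lv_LINC00673, against 889, 728 and 720 counts in Lv_NC, although the Lv_NC libraries were the deeper ones. In CPM these were 17.4, 20.9 and 18.6 in Lv_LINC00673, against 11.5, 8.99 and 9.87 in Lv_NC. The lowest Lv_LINC00673 library was well above the highest Lv_NC library. The level was 1.88-fold that of Lv_NC (log2 fold change 0.91, SE 0.15, 95% interval 0.57 to 1.25, edgeR adjusted p = 0.00586). The gene passed the threshold under all 20 alternatives, where its highest adjusted p was 0.0499, with log2 fold changes of 0.64 to 1.08. The lowest of these, 0.64, came with the GC and length offset (edgeR adjusted p = 0.00145), at a transcript GC content of 43.6%.

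FAM104A, the head-to-head partner of C17orf80, encodes a cofactor of the ATPase VCP and did not pass the threshold. It had 5590, 5487 and 5591 counts in Lv_LINC00673, against 6992, 7022 and 7802 counts in Lv_NC. In CPM these were 76.4, 82.0 and 82.0 in Lv_LINC00673, against 90.3, 86.7 and 107 in Lv_NC. The groups did not overlap, and Lv_NC library 3 was the highest. Its log2 fold change was -0.24 (SE 0.10, 95% interval -0.47 to -0.01, edgeR adjusted p = 0.114), and with the GC and length offset it was -0.28 (edgeR adjusted p = 0.0224).

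Within each library, C17orf80 counts were 22.8%, 25.6% and 22.7% of FAM104A counts in Lv_LINC00673, against 12.7%, 10.4% and 9.23% in Lv_NC. The share was higher in all 3 Lv_LINC00673 libraries than in any Lv_NC library, with a difference of 1.15 in log2 ratio (exact two-sided permutation p = 0.1, the smallest the design allows, 0.15 adjusted over 6 ratios). The genes whose outermost annotated starts lie in the 138 shared bases printed above thus had log2 fold changes of opposite sign.

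COG1, a subunit of the conserved oligomeric Golgi complex whose 3′ end overlaps that of FAM104A, had 4140, 4011 and 3831 counts in Lv_LINC00673, against 4248, 4308 and 3546 counts in Lv_NC. The CPM values were 56.6, 59.9 and 56.2 in Lv_LINC00673, against 54.9, 53.2 and 48.6 in Lv_NC. The groups did not overlap, and Lv_NC library 1 came close to the lowest Lv_LINC00673 library. The log2 fold change was 0.14 (SE 0.09, 95% interval -0.07 to 0.35, edgeR adjusted p = 0.295). It passed the threshold with library totals (0.31, adjusted p = 0.0414), on log2(FPKM + 1) (0.29, limma adjusted p = 0.0498) and with the GC and length offset (0.35, adjusted p = 0.0128), at a transcript GC content of 54.2%.

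SSTR2, a receptor of the hormone somatostatin, was low in these cells. It had 270, 218 and 247 counts in Lv_LINC00673, against 290, 448 and 297 counts in Lv_NC. Scaled to CPM, it had 3.69, 3.26 and 3.62 in Lv_LINC00673, against 3.75, 5.53 and 4.07 in Lv_NC, so the groups nearly touched and Lv_NC library 2 was the highest. Its log2 fold change was -0.34 (SE 0.20, 95% interval -0.78 to 0.11, edgeR adjusted p = 0.239), and with the GC and length offset it was -0.77 (edgeR adjusted p = 0.0299), at a transcript length of 7683 bases.

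Of the 10 genes, 3 passed the threshold, 1 higher and 2 lower in Lv_LINC00673, where 26.8% of all tested genes passed. The share of the 10 was thus near that of the whole table. Their median log2 fold change was -0.18, against 0.05 over all tested genes. In CPM the groups did not overlap for 8 of the 10 genes, 5 lower and 3 higher in Lv_LINC00673, where 45.1% of all tested genes did not overlap, 21.4% lower and 23.7% higher. In FPKM they did not overlap for 5, with SLC39A11 and SDK2 lower and LINC01152, COG1 and C17orf80 higher in Lv_LINC00673, where 42.8% of all tested genes did not overlap, 13.1% lower and 29.7% higher. Under the GC and length offset 6 of the 10 passed, 2 higher and 4 lower, where 32.3% of 16783 tested genes passed.

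**Figure D2:**
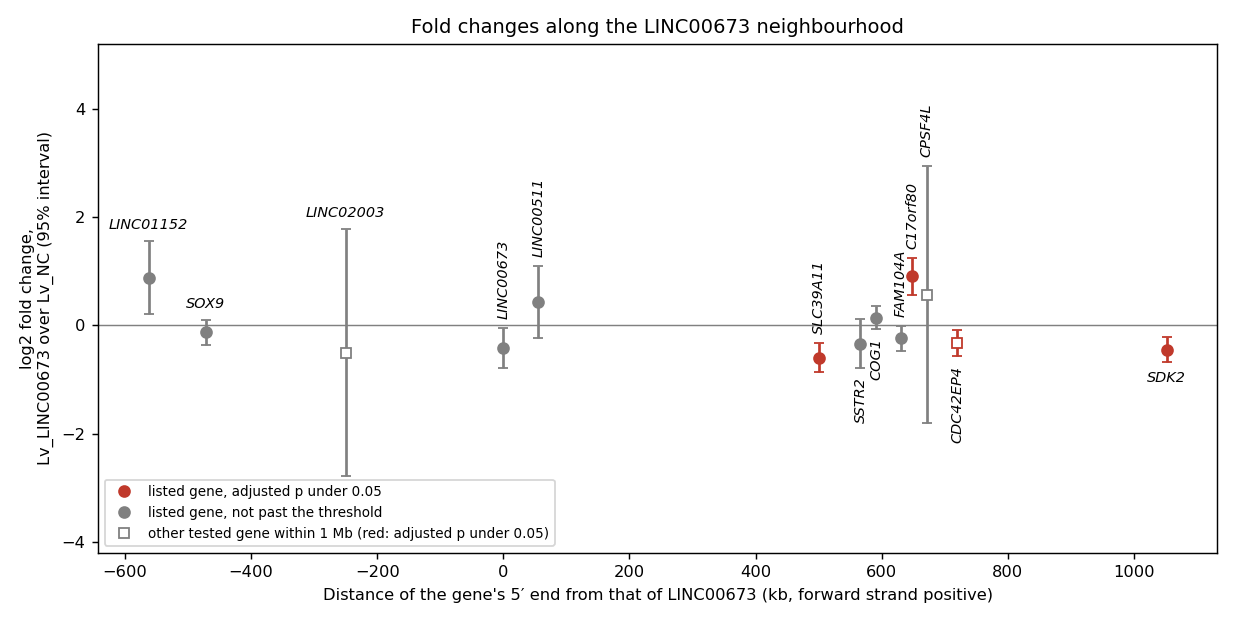
Log2 fold change, Lv_LINC00673 over Lv_NC, with its 95% interval (vertical axis) of the tested genes within 1 Mb of LINC00673, against the distance of each 5′ end from that of LINC00673 in kb (horizontal axis); red marks an adjusted p under 0.05 and open squares the genes outside the 10, and symbols of crowded genes are moved sideways by up to 9 kb. SLC39A11, CDC42EP4 and SDK2 lay below 0 and C17orf80, between them, at 0.91.

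Distance from LINC00673 did not order the differences. SLC39A11 and SDK2, whose 5′ ends lie 499.9 and 1051.6 kb from that of LINC00673, were lower in Lv_LINC00673, and C17orf80 at 639.6 kb was higher. Within 1 Mb of the ends of LINC00673 the table held 20 rows, of which 13 were tested and 4 passed, 1 higher and 3 lower in Lv_LINC00673, a share of 30.8%. Within 2 Mb it held 45 rows, of which 20 were tested and 5 passed, 1 higher and 4 lower. The median log2 fold change was -0.24 within 1 Mb and -0.21 within 2 Mb. The fourth gene within 1 Mb was CDC42EP4, an effector of the GTPase CDC42, with 10343, 7724 and 8593 counts in Lv_LINC00673, against 12213, 14224 and 10845 in Lv_NC (edgeR log2 fold change -0.33, adjusted p = 0.0471). That call was lost under 14 of 20 alternatives. They included library totals (-0.17, edgeR adjusted p = 0.197), the GC and length offset (-0.12, edgeR adjusted p = 0.184) and leaving out any library but Lv_LINC00673 library 1, which gave edgeR adjusted p = 0.0718 to 0.149.

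The remaining transcripts within 1 Mb of LINC00673 had low counts. CPSF4L, which overlaps C17orf80, had 26, 20 and 0 counts in Lv_LINC00673, against 16, 10 and 8 in Lv_NC (edgeR adjusted p = 0.725). LINC02003 had 0, 11 and 10 counts in Lv_LINC00673, against 13, 13 and 8 in Lv_NC (edgeR adjusted p = 0.749). SOX9-AS1, which starts head to head with SOX9, had 5, 5 and 12 counts in Lv_LINC00673, against 3, 0 and 5 in Lv_NC and was not tested. LOC105371887, whose start window shares 298 bases with that of LINC00511, had 0 counts in all Lv_LINC00673 libraries, against 0, 3 and 0 in Lv_NC. LOC107985005, which lies within LINC00511, had 12, 15 and 8 counts in Lv_LINC00673, against 7, 4 and 4 in Lv_NC, and was not tested.

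Per length, the 10 genes covered a 106-fold range of mean FPKM. SOX9 stood at 34.8 FPKM over the 6 libraries, above 88.9% of tested genes, and FAM104A at 29.7, COG1 at 17.6 and SLC39A11 at 9.51. SDK2 followed at 6.30, C17orf80 at 4.29 and LINC00673 at 3.01 FPKM, which placed LINC00673 above 55.0% of tested genes. LINC00511 averaged 0.523, SSTR2 0.495 and LINC01152 0.329 FPKM, each above fewer than 30% of tested genes. Over the 6 libraries the ranges of SOX9 and FAM104A overlapped, as did those of SDK2 and C17orf80, of C17orf80 and LINC00673, of LINC00511 and SSTR2, and of SSTR2 and LINC01152. The other neighbours in this order were separate in every library.

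**Figure D3:**
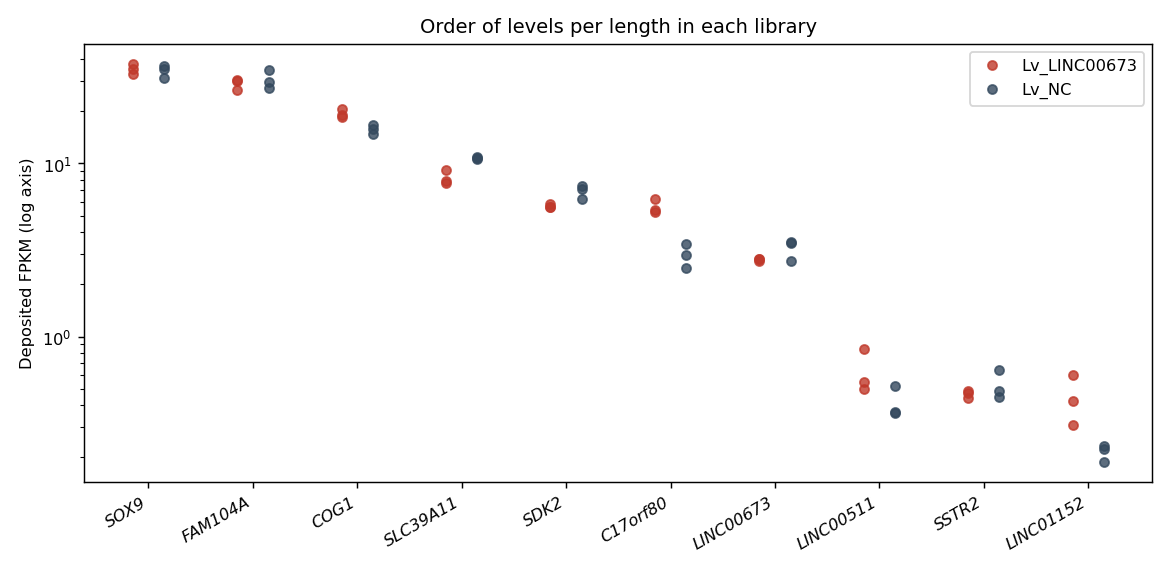
Deposited FPKM (log axis) of the 10 genes in each library, ordered by their mean over all 6 libraries, with Lv_LINC00673 left of Lv_NC for each gene. C17orf80 overlapped SDK2 in Lv_LINC00673 and LINC00673 in Lv_NC, and LINC00673 stood apart from LINC00511 in all libraries.

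The place of C17orf80 in the order differed between the groups. In Lv_LINC00673 its 5.28 to 6.20 FPKM overlapped the 5.57 to 5.81 FPKM of SDK2 and lay above the 2.73 to 2.82 FPKM of LINC00673. In Lv_NC its 2.47 to 3.42 FPKM lay below the 6.25 to 7.45 FPKM of SDK2 and overlapped the 2.75 to 3.53 FPKM of LINC00673. The spread within groups was smallest for COG1, with an SD of 0.0728 in log2(CPM + 0.5), and largest for LINC01152 and LINC00511 at 0.250 and 0.240, against a median of 0.194 over all tested genes. LINC00673 itself had 0.148 over both groups, with an SD of 0.0332 in Lv_LINC00673 and 0.207 in Lv_NC.

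GC content and length of the transcript moved with the fold change across the whole table, and the 10 genes differ in both. Across 11221 genes, which are not independent replicates, Spearman's rho of the log2 fold change was -0.52 with GC content and 0.46 with length. LINC01152 and C17orf80, the genes of lowest GC content among the 10 at 41.7% and 43.6%, had the highest log2 fold changes. SDK2, with the highest GC content at 58.5%, was among the lower ones. Other members lay against these trends. SSTR2 and FAM104A, with GC contents of 45.7% and 46.4%, had log2 fold changes of -0.34 and -0.24, and COG1, at 54.2%, had 0.14. SDK2 and SSTR2, with the longest transcripts at 10723 and 7683 bases, both lay below 0, and the offset took them further down, to -0.63 and -0.77. The offset took C17orf80 to a value within its interval and kept the calls of C17orf80, SLC39A11 and SDK2. It took LINC00673, at 53.2% GC, to -0.16.

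**Figure D4:**
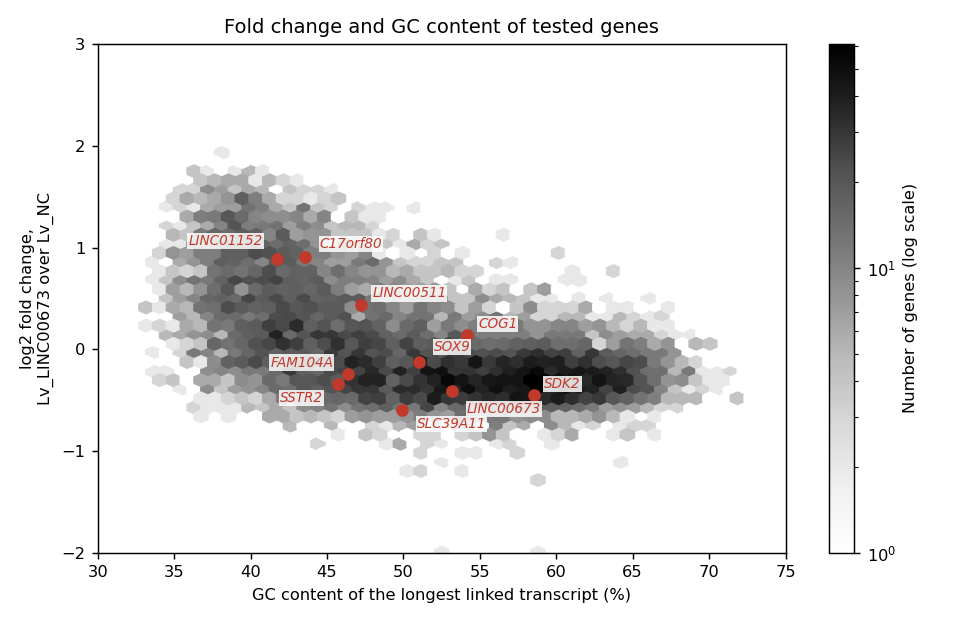
Log2 fold change, Lv_LINC00673 over Lv_NC (vertical axis, values beyond it drawn at its edge), against GC content of the transcript in percent (horizontal axis) for 11221 genes in grey by density and the 10 genes in red. LINC01152 and C17orf80 sat at low GC content with values of 0.88 and 0.91, and SLC39A11, at 49.9% GC, at -0.59.

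Genes whose levels followed those of LINC00673 over the 6 libraries were found by the root mean square difference of standardised log2 CPM among 11662 genes with a mean of at least 5 CPM. The closest were FZD8, a Wnt receptor, at 0.0979, EIF4H, a translation initiation factor, at 0.109, and MAGEA8, a cancer-testis antigen, at 0.112. They were followed by a numbered copy of ZYX at 0.126 and by ITPA, an inosine triphosphatase, at 0.127. FZD8 had 19.3, 18.5 and 18.6 CPM in Lv_LINC00673, against 25.8, 25.8 and 21.2 CPM in Lv_NC, with Lv_NC library 3 the lowest of its group as for LINC00673. None of these named genes lies on chromosome 17, apart from the copy of ZYX, which has no position in the table used. Of the neighbours, SLC39A11 came 1658th (0.596), SDK2 2559th (0.682) and SOX9 5775th, and C17orf80 came 10607th. For SOX9 the closest were MAN1B1 (0.223) and CPNE2 (0.224) among genes with a plain symbol, after copies of PBX2 (0.175), PKD1P6-NPIPP1 (0.219) and RNF31 (0.221) whose counts are uncertain.

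Cartilage genes linked to SOX9, as targets or partners, were set beside the SOX9 value. Of 20 genes in the list, 15 were tested and 3 passed, all higher in Lv_LINC00673, where 26.8% of all tested genes passed and 14.3% passed higher. The median log2 fold change of the list was 0.60, against 0.05 over all tested genes. The middle gene was MATN1, named after its values were seen, with 36 to 117 counts a library and overlapping groups (edgeR adjusted p = 0.283). With a filter of 1 CPM in 3 libraries 9 genes of the list were tested and 2 passed. Of those 9, SOX5, COL11A1, MATN4 and ACAN lay above 0 in the reported fit and the rest below. SOX5, a partner of SOX9 on cartilage enhancers, averaged 2.02 ± 0.590 CPM in Lv_LINC00673 and 0.969 ± 0.253 CPM in Lv_NC (SD, n = 3 each; log2 fold change 1.06, edgeR adjusted p = 0.0339). COL11A1, a chain of cartilage collagen XI, averaged 17.6 ± 3.35 CPM in Lv_LINC00673 and 10.7 ± 1.33 CPM in Lv_NC (log2 fold change 0.72, edgeR adjusted p = 0.0192). COL10A1, the collagen of hypertrophic cartilage, had 10, 20 and 20 counts in Lv_LINC00673, against 0 in all 3 Lv_NC libraries. This is 18.5-fold higher if a floor of 3 counts over the Lv_NC group is assumed. COL10A1 stayed at or below 0.046 FPKM, near the floor, and passed the count filter only through the Lv_LINC00673 libraries. On log2(FPKM + 1) its log2 fold change was 0.05 (limma adjusted p = 0.222). The main cartilage collagen COL2A1 was too low to be tested. With the GC and length offset the list's median was 0.31, COL11A1 kept its call (0.40, edgeR adjusted p = 0.0323) and SOX5 did not (0.31, adjusted p = 0.445). In that fit 3 genes of the list passed higher and 1 lower. The lower one was HAPLN1, a link protein of cartilage matrix, named after its values were seen, with 4.16 ± 0.775 CPM in Lv_LINC00673 and 5.86 ± 0.862 CPM in Lv_NC (SD, n = 3 each; log2 fold change -0.50, edgeR adjusted p = 0.0967, and -1.21 with the offset, adjusted p = 0.0018). Without Lv_LINC00673 library 2 or 3, 0 genes of the list passed by edgeR, and without Lv_NC library 2 or 3 only 1 did. Leaving out Lv_LINC00673 library 2 took SOX5 to an adjusted p of 0.135, COL11A1 to 0.0733 and COL10A1 to 0.0597. Without Lv_LINC00673 library 3 these were 0.0525, 0.0574 and 0.0586. SOX5 and COL11A1 also missed the threshold without Lv_NC library 2 (0.0864 and 0.0556) and library 3 (0.109 and 0.054).

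In the SOX family 13 of 20 genes were tested, with SOX5 higher and SOX13 and SOX17 lower in Lv_LINC00673, and a median log2 fold change of -0.20. These 3 of 13 compare with 26.8% over all tested genes, and the count was 1 with the GC and length offset and 0 by edgeR when library 2 or 3 of either group was left out. SOX13, of the same subgroup as SOX5, averaged 29.1 CPM in Lv_LINC00673 and 42.5 CPM in Lv_NC (log2 fold change -0.55, edgeR adjusted p = 0.0169). SOX17, a factor of endoderm and endothelium, averaged 18.9 CPM in Lv_LINC00673 and 27.3 CPM in Lv_NC (-0.53, edgeR adjusted p = 0.0206). Under the GC and length offset SOX17 missed the threshold (adjusted p = 0.116). Without Lv_LINC00673 library 2 or 3, or Lv_NC library 2 or 3, SOX13 had adjusted p-values of 0.053, 0.0559, 0.052 and 0.0554, and SOX17 of 0.0675, 0.083, 0.0682 and 0.062.

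Among 14 ZIP zinc transporters, 12 were tested and 3 passed, where 26.8% of all tested genes passed. The 3 were lower in Lv_LINC00673, and the median log2 fold change was -0.24. At an unadjusted p under 0.05 there were 3 higher and 4 lower, DESeq2 gave 1 higher and 4 lower, and library totals gave 1 higher and 1 lower. The count was 6 without Lv_LINC00673 library 1 (1 higher and 5 lower) and 2 without Lv_NC library 2. It was 1 when Lv_LINC00673 library 2 or 3 or Lv_NC library 3 was left out. Beside SLC39A11 these were SLC39A3, with 45.6 CPM in Lv_LINC00673 and 60.9 CPM in Lv_NC (-0.42, edgeR adjusted p = 0.0160), and SLC39A13, with 66.2 CPM in Lv_LINC00673 and 86.9 CPM in Lv_NC (-0.39, edgeR adjusted p = 0.0438). With the GC and length offset SLC39A11 remained past the threshold, while SLC39A3 (adjusted p = 0.0891) and SLC39A13 (adjusted p = 0.324) did not. SLC39A3 also missed it without Lv_LINC00673 library 2 or 3 or Lv_NC library 3 (adjusted p = 0.0546, 0.0584 and 0.0572), and SLC39A13 without Lv_LINC00673 library 2 or 3 or Lv_NC library 2 or 3 (0.129, 0.117, 0.134 and 0.105).

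The 8 subunits of the COG complex and 8 further Golgi tethers and SNARE proteins were counted separately. Of COG1 to COG8, 1 passed, higher in Lv_LINC00673, and the median log2 fold change was 0.30. Of the other 8, 2 passed higher and 5 lower, with a median of -0.40, where 14.3% of all tested genes passed higher and 12.5% lower. Over both sets the count of 8 fell to 4 when Lv_LINC00673 library 2 or 3 was left out, to 5 for Lv_NC library 2 and to 3 for Lv_NC library 3. The passing subunit was COG6, with 5.49 CPM in Lv_LINC00673 and 3.37 CPM in Lv_NC (0.71, edgeR adjusted p = 0.0491), which was 0.04 with the GC and length offset (adjusted p = 0.845). USO1, the vesicle tether p115, averaged 27.7 ± 6.73 CPM in Lv_LINC00673 and 10.02 ± 1.88 CPM in Lv_NC (SD, n = 3 each; log2 fold change 1.47, edgeR adjusted p = 0.0047). GOLGA5, a golgin, averaged 9.49 CPM in Lv_LINC00673 and 5.76 CPM in Lv_NC (0.72, edgeR adjusted p = 0.0231). STX5, a SNARE of the Golgi, averaged 23.6 CPM in Lv_LINC00673 and 34.5 CPM in Lv_NC (-0.54, edgeR adjusted p = 0.0230), and missed the threshold with the offset (adjusted p = 0.276). With the offset COG1 and COG2 passed higher among the subunits, and of the other 8 genes 2 passed higher and 2 lower. USO1 passed under every alternative. COG6, GOLGA5 and STX5 each missed the threshold without Lv_LINC00673 library 2 (adjusted p = 0.170, 0.0893 and 0.0618) and without Lv_NC library 3 (0.135, 0.0547 and 0.0535). COG6 and GOLGA5 also missed it without Lv_LINC00673 library 3 (0.132 and 0.0652) or Lv_NC library 2 (0.139 and 0.068), and STX5 without Lv_NC library 1 (0.0569).

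Somatostatin ligand and receptor genes were low in all libraries. CORT, a somatostatin-related ligand, reached 0.672 FPKM and SSTR5 0.534 FPKM in a Lv_LINC00673 library, beside 0.440 to 0.643 FPKM for SSTR2 over all libraries. Of 7 ligand and receptor genes, 5 were tested and 0 passed by edgeR, with 0 at an unadjusted p under 0.05 and 0 by DESeq2. With the GC and length offset 1 passed lower, which was SSTR2, and without Lv_NC library 2 another 1 passed higher. SST, the ligand, and SSTR4 had 0 counts in every library. In the sidekick list 7 of 10 genes were tested and 4 passed, 2 higher and 2 lower, where 26.8% of all tested genes passed. The list's median log2 fold change was 0.30. Leaving out Lv_LINC00673 library 2 or Lv_NC library 3 gave 0, Lv_NC library 2 gave 1 and Lv_LINC00673 library 3 gave 2 (edgeR). SDK1, the paralog of SDK2, averaged 47.3 ± 5.97 CPM in Lv_LINC00673 and 61.7 ± 2.85 CPM in Lv_NC (SD, n = 3 each; log2 fold change -0.38, edgeR adjusted p = 0.0366). On the deposited FPKM its direction turned, with 0.09 on log2(FPKM + 1) and 0.11 on log2(FPKM + 0.1). The scaffold genes MAGI1 (43.7 CPM in Lv_LINC00673 and 30.3 CPM in Lv_NC; 0.52, edgeR adjusted p = 0.0279) and MAGI3 (11.1 CPM in Lv_LINC00673 and 6.79 CPM in Lv_NC; 0.71, edgeR adjusted p = 0.0188) were the higher ones. Both missed the threshold with the GC and length offset (adjusted p = 0.0828 and 0.306), where SDK1 (-0.55, adjusted p = 0.0038) and SDK2 passed lower. SDK1, MAGI1 and MAGI3 missed it without Lv_LINC00673 library 2 (adjusted p = 0.0975, 0.108 and 0.0712) and without Lv_NC library 3 (0.0841, 0.0900 and 0.0737). SDK1 and MAGI1 missed it without Lv_NC library 2 (0.105 and 0.0812), SDK1 without Lv_NC library 1 (0.0596) and MAGI1 without Lv_LINC00673 library 3 (0.0644).

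Genes tied to LINC00673 in earlier tumour studies were measured as RNA only. The reported action of PRPF19 on the phosphatase PTPN11 concerns protein and was not measured. Of 17 tested out of 18, 7 passed higher and 2 lower, where 14.3% of all tested genes passed higher and 12.5% lower, with a median log2 fold change of 0.23, against 0.05 over all tested genes. PTPN11, which encodes the phosphatase SHP2 of RAS signalling, averaged 94.6 ± 20.4 CPM in Lv_LINC00673 and 54.2 ± 15.8 CPM in Lv_NC (SD, n = 3 each; log2 fold change 0.80, edgeR adjusted p = 0.0286). Under the GC and length offset it was 0.27 (adjusted p = 0.0910). Without Lv_LINC00673 library 2 or 3 or Lv_NC library 2 or 3 its adjusted p was 0.103, 0.0777, 0.0678 and 0.101. BRCA1, of homologous recombination, averaged 21.8 CPM in Lv_LINC00673 and 8.34 CPM in Lv_NC (1.39, edgeR adjusted p = 0.00623). SUZ12, a subunit of Polycomb complex PRC2, averaged 28.0 CPM in Lv_LINC00673 and 11.8 CPM in Lv_NC (1.24, edgeR adjusted p = 0.00801). BRCA1 and SUZ12 passed with any 1 library left out. The count of 9 was 5 without Lv_LINC00673 library 3 and 6 when library 2 of either group or Lv_NC library 3 was left out.

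Of 12 genes tied to LINC00511, all tested, 3 passed higher and 3 lower, where 26.8% of all tested genes passed. Their median log2 fold change was -0.18. Leaving out Lv_NC library 3 took the count of 6 to 0, either Lv_LINC00673 library 2 or 3 to 1, and Lv_NC library 2 to 2 (edgeR). EZH2, the methyltransferase of PRC2, averaged 21.0 CPM in Lv_LINC00673 and 13.3 CPM in Lv_NC (0.66, edgeR adjusted p = 0.0241). PTK2, which encodes focal adhesion kinase, averaged 97.9 CPM in Lv_LINC00673 and 54.7 CPM in Lv_NC (0.84, edgeR adjusted p = 0.0151). KLF2, a Krüppel-like transcription factor, averaged 40.3 CPM in Lv_LINC00673 and 58.6 CPM in Lv_NC (-0.54, edgeR adjusted p = 0.0114). MMP13, a collagenase, had 20, 14 and 48 counts in Lv_LINC00673, against 8, 5 and 8 in Lv_NC (2.09, edgeR adjusted p = 0.0488), and missed the threshold without any 1 library (adjusted p = 0.0612 to 0.289). Its Lv_NC counts were under the cutoff of the count filter, so MMP13 was tested only through the Lv_LINC00673 libraries. EZH2, PTK2 and KLF2 kept their calls with the GC and length offset and missed the threshold without Lv_NC library 3 (adjusted p = 0.0687, 0.0601 and 0.0513). EZH2 and PTK2 also missed it without Lv_LINC00673 library 2 (0.0937 and 0.0543) or 3 (0.0887 and 0.0528), and EZH2 without Lv_NC library 2 (0.0692).

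Under the 20 alternatives, which change the scaling, filter, tool or unit or leave out 1 library, SOX9 was the only gene of the 10 whose log2 fold change turned sign. C17orf80 kept its call under all of them, and LINC00673 passed the threshold under none.

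**Figure D5:**
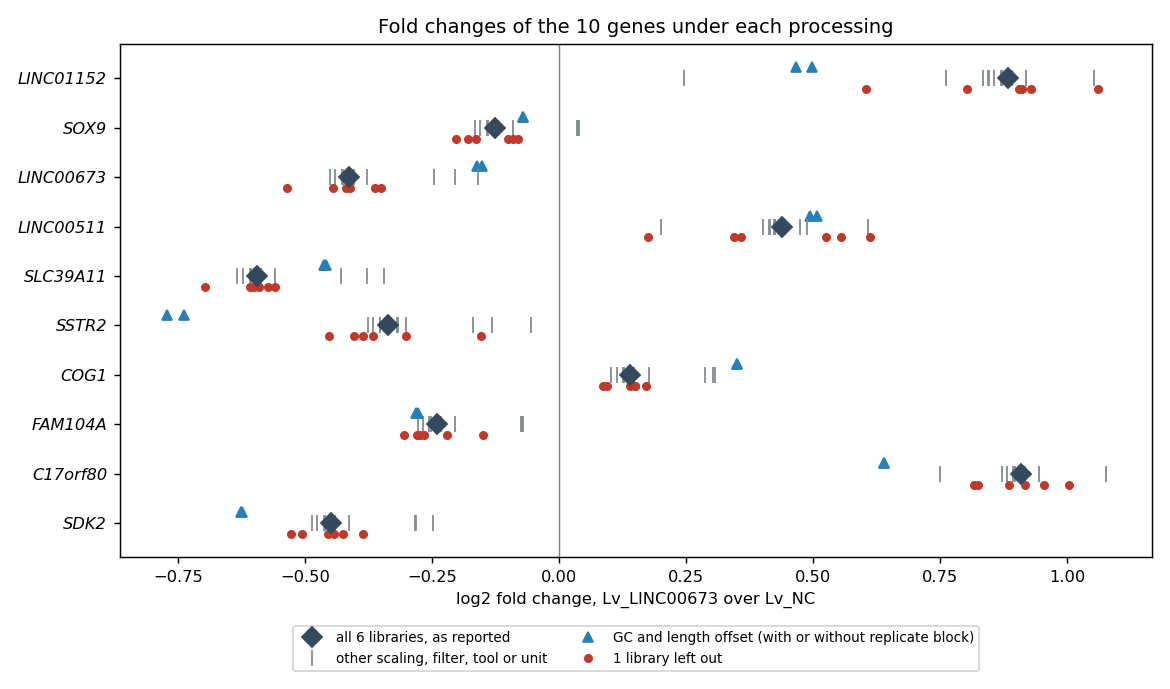
Log2 fold change, Lv_LINC00673 over Lv_NC (horizontal axis), of the 10 genes under the processing as reported (diamonds), with other scalings, filters, tools or units (ticks), with a GC and length offset (triangles) and with 1 library left out (circles). LINC00673 lay between -0.53 and -0.15, C17orf80 between 0.64 and 1.08, and SOX9 on both sides of 0.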

How the data were processed

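Libraries of 6 U2OS samples were made from total RNA with Illumina's TruSeq chemistry, per the labels' protocols. The authors deposited raw read counts per gene, which are whole numbers and not normalized, and FPKM values per gene, both with 1 column per library (0 columns unmatched). The build was hg38, per the submitters' processing notes. The aligner, counter, annotation, strand setting and the length model of the FPKM are given in none of the sources used here. The table had 50550 rows, 6056 of them without a gene symbol, which stayed in library sizes and tests and held 3.22% to 4.26% of counts.

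Libraries were grouped by title. After filterByExpr and TMM scaling, counts went into the quasi-likelihood test of edgeR 4.0.16 (robust, two-sided, R 4.3.3), Lv_LINC00673 over Lv_NC, with Benjamini-Hochberg adjustment over 21933 genes and a threshold of 0.05. Every adjusted p is from this test unless another is named. The SE was taken as the fold change on the log2 scale over the square root of F. Intervals cover 95%. Single values were compared by exact permutation over 20 splits. The scripts were tested on simulated data.

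Named genes were the 10 genes, all other tested genes within 1 Mb, up to 4 passing genes per list with the largest change, and the 5 genes closest to LINC00673 and to SOX9. A gene that the rule also takes is not reported here. The genes and lists were chosen with earlier results of these data known. Gene positions and start sequences are from RefSeq (GRCh38.p14), and GC content and length from GENCODE 29 transcripts linked to RefSeq. No start window was used for SOX9 and SDK2.

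Alternatives were RLE and upper-quartile factors, library totals, DESeq2 1.42.0, limma-voom (limma 3.58.1), non-robust fits, no filter, a filter of 1 CPM in 3 libraries, a replicate block, an offset for GC content and length (mgcv 1.9.3) with and without that block, the same genes without the offset (chosen after seeing the data), limma on log2(FPKM + 1) and log2(FPKM + 0.1), and each library left out.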

Additional observations from a re-analysis of the deposited data

How the results depend on the processing

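Same-numbered libraries did not deviate together (correlations of -0.42, -0.36 and 0.041 over 12349 genes). Correlations of differently numbered libraries ran from -0.14 to 0.45, the highest for Lv_LINC00673 library 1 with Lv_NC library 2. With 3 libraries a group, centred within the group, these values cannot exclude a pairing. The labels state none, so a replicate block was an alternative only. With it 1208 genes passed in place of 5883, C17orf80 alone of the 10 genes (1 in place of 3) and 1 in place of 4 genes within 1 Mb, and SLC39A11 (-0.60, edgeR adjusted p = 0.0624) and SDK2 (-0.45, edgeR adjusted p = 0.0855) were lost. The GC and length offset gave 6 of the 10 genes, and with the block as well 3913 genes in all. Log2(FPKM + 0.1) gave 2 genes within 1 Mb. Leaving out 1 library gave 2716 to 6490 genes (2716 and 2830 without Lv_LINC00673 libraries 2 and 3, 3631 and 2913 without Lv_NC libraries 2 and 3), 2 to 4 of the 10 genes, 2 to 5 genes within 1 Mb, and -0.53 to -0.35 for LINC00673, whose call changed under none of the 20 alternatives. Library totals moved the median of all genes by 0.17 and gave 4051 higher and 1224 lower genes, against 3145 and 2738.

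Of 200 values of the 10 genes under alternatives, 179 kept direction and side of the threshold, 9 lost the call, 9 gained it and 3 turned direction (SOX9, 0.039, 0.035 and 0.036 with library totals, log2(FPKM + 1) and log2(FPKM + 0.1)). Of 881 values of all 45 named genes, 666 kept both and 17 turned direction. The others that turned were LINC02003 without Lv_LINC00673 library 1 (0.075, lowest -1.01 without library 2), CPSF4L with limma-voom (-0.64), SDK1 on both FPKM scales (0.093 and 0.11), ITPA with the offset without and with the block (0.18 and 0.18), MAN1B1 with library totals and both offsets (0.014, 0.12 and 0.12), and CPNE2 with library totals, both offsets and both FPKM scales (0.049, 0.17, 0.17, 0.040 and 0.042). The cause was not tested. Summing numbered copies gave no value, since the 10 genes had 0 such rows. Precision is limited by 3 libraries a group and, for LINC00511 and LINC01152, by counts of 61 to 143 a library.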

Other observations

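The deposited FPKM and counts imply an effective length for each gene and library, the count divided by the FPKM and by the library total. For LINC00673 it was 2385, 2469 and 2428 bases in Lv_LINC00673, against 2478, 2490 and 2444 bases in Lv_NC, within the 2160 to 2527 bases of its RefSeq transcripts. For C17orf80 it was 3392, 3656 and 3683 bases in Lv_LINC00673, against 3202, 3372 and 3167 bases in Lv_NC. The closest C17orf80 values of the groups were 3392 and 3372 bases. The share of all genes whose groups separate on this measure was not computed, so the order cannot be called particular to C17orf80. For SLC39A11 it was 2512, 2684 and 2695 bases in Lv_LINC00673, against 2774, 2717 and 2692 bases in Lv_NC, and the groups overlapped. For SOX9, which has 1 RefSeq transcript, the values lay between 4074 and 4091 bases over the 6 libraries. Its transcript has 3935 bases, so an implied length can exceed that of the transcript. The implied lengths of C17orf80 and SLC39A11 thus varied between libraries, and which transcripts carry their reads was not tested.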
